A study of Zea mays with 2182 samples.

Results

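Cells of maize anthers 2.75 mm long were compared with cells of anthers 3.0 mm long, the longest of a series of 11 lengths. The anthers came from the fertile inbred line W23, and no treatment was given. The groups were defined by anther length, but the sets of cells named in the titles were not spread evenly over them. Cells of fixed and digested anthers were sorted singly on a Hana Cell Sorter, and the 3' ends of their transcripts were counted with CEL-Seq2, in which each captured molecule carries a unique molecular identifier (UMI). Cells at these lengths were taken from the table of UMI counts where they held at least 500 UMIs, which kept 126 of 169 cells at 2.75 mm and 89 of 154 at 3.0 mm. They were summed per pool, meaning the cells that share a set, a set number and a length in their title, and pools of 8 or more cells were compared. This left 181 of the 2182 cells in the whole series, 123 cells in 3 pools at 2.75 mm and 58 cells in 3 pools at 3.0 mm. A further 3.0 mm pool, set 3.29.22 number 2 with 27 cells, was left out because of its pollen transcripts, and 7 cells in pools of fewer than 8 were left out as well.

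In maize, anther length is used as a guide to developmental stage. The anther wall is built of epidermis, endothecium, middle layer and tapetum around the germinal cells, which pass through meiosis and become pollen. The tapetum nourishes the developing pollen and then breaks down, and the endothecium can hold chloroplasts. Aquaporins are channels for water in the vacuolar and plasma membranes, and chalcone synthase starts the synthesis of flavonoids, which coat the pollen wall.

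At 2.75 mm the pools were set 3.29.22 number 1 (44 cells, 77645 summed UMIs), set 8.18.21 number 3 (53 cells, 91061 UMIs) and set 8.18.21 number 6 (26 cells, 27479 UMIs). At 3.0 mm they were set 1.4.21 number 4 (19 cells, 23620 UMIs), set 3.29.22 number 1 (26 cells, 37158 UMIs) and set 8.18.21 number 10 (13 cells, 32828 UMIs). Where values of all pools are listed, they follow this order. A single cell gave 47.9% of the UMIs of the last of these pools and another gave 32.1% of those of set 1.4.21 number 4. Set 1.4.21 had an analysed pool at 3.0 mm and none at 2.75 mm. The labels tie no cell to a plant. The p-values thus weigh the difference between lengths against the spread between these pools, which may be partly technical. Of 81 well numbers, 61 occurred in more than 1 analysed pool, and 0 pairs of cells had identical counts. Symbols marking cell types were few: tapetum and vascular markers on the lists had no row, RAD51B of the germinal list had 4 UMIs and CR4 of the epidermal list 2, so the labelled tissue could be checked against few markers. Of the 8 pollen markers with a row, EXPB1, EXPB10, EXPB11, PRO3, ADF2 and MGS1 had 0 UMIs in the 6 pools, and TUBA1 and TUBA3 are described below with the tubulins. The 5 symbols on the endothecium and wall list were C2, the chalcone synthase gene, and 4 photosynthesis genes. They summed to 2035, 10060 and 6842 CPM at 2.75 mm and to 7959, 13400 and 10690 CPM at 3.0 mm. Of these sums C2 made up 373.5, 5963 and 2766 CPM at 2.75 mm and 0, 6916 and 7615 CPM at 3.0 mm. The sums therefore mix unlike genes and are no check of wall tissue.

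Depth per cell overlapped between the lengths. The median UMIs per cell were 1222, 1324 and 884.5 in the 2.75 mm pools and 782, 1155 and 1080 in the 3.0 mm pools, or 1143 ± 230 against 1006 ± 197 (mean ± SD, n = 3 pools each). The groups overlapped, and the exact two-sided permutation test gave p = 0.50, where 3 pools against 3 cannot go below 0.10. With each cell thinned to 500 UMIs, a mean of 355 ± 51.2 genes was detected per cell at 2.75 mm and 327 ± 32.6 at 3.0 mm (exact permutation test, two-sided, p = 0.50).

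Most of the genes that differed between the lengths were lower at 3.0 mm, and most of these are listed in the table by ID without a symbol. Of 386 genes tested, 13 (3.37%) differed at a false discovery rate of 0.05 by edgeR's quasi-likelihood test on the pool sums. Of these, 11 were lower at 3.0 mm (2.85% of the tested genes) and 2 were higher (0.518%). TIP1-1 was the only one with a symbol. At an unadjusted p under 0.05 there were 37 genes. The count depended on which pool was left out. Of the 3.0 mm pools, it was 0 without set 1.4.21 number 4 and 0 without set 8.18.21 number 10 (61 and 51 genes at an unadjusted p under 0.05, edgeR). It was 21 without set 3.29.22 number 1. Of the 2.75 mm pools, it was 29 without set 8.18.21 number 3, 12 without set 8.18.21 number 6 and 12 without set 3.29.22 number 1. Set 8.18.21 alone has 2 pools at 2.75 mm and 1 at 3.0 mm, so its refit had no spread at 3.0 mm to draw on. The median log2 fold change of its 682 tested genes was -0.16, against 0.03 in the main fit, and no conclusion is drawn from its calls. Where tested, the 13 genes kept the sign of their change in each of these refits, which reuse the pools that selected them. For 12 of the 13 the pools of the lengths did not overlap, so leaving out a pool could not turn the direction of their CPM. The kept signs are thus a description. In cells of at least 1000 UMIs 12 of 13 kept the sign. With pools of any number of cells 8 of 9 did, and with pools of 4 or more cells 11 of 12.

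Among the fallen genes, Zm00001d008950 had 4585, 2328 and 509.5 CPM (UMIs of the gene scaled to 1 common total for every pool) in the 2.75 mm pools and 0 UMIs in each of the 3.0 mm pools. Every 2.75 mm pool was thus above every 3.0 mm pool, though the 2.75 mm pools themselves spanned a wide range. Over the summed pools it had 2967 CPM at 2.75 mm, at least 92.6-fold higher than the level of 32.0 CPM that 3 counts over the 3.0 mm group would give, and its adjusted p was 0.000216 by edgeR. Zm00001d026620 had 2099, 571 and 327.5 CPM at 2.75 mm and 0 UMIs at 3.0 mm, at least 35.6-fold lower (adjusted p = 0.000203, edgeR). Without the 2.75 mm pool of set 3.29.22 these bounds were 59.5-fold for Zm00001d008950 and 16.1-fold for Zm00001d026620, and without the 3.0 mm pool of that set, whose UMIs lower the floor, 55.8-fold and 21.5-fold. For Zm00001d026620 the bound without set 8.18.21 number 10 was 23.1-fold, and for Zm00001d008950 60.1-fold. By set, the same pools had 4585 and 0 CPM of Zm00001d008950 in set 3.29.22, and a mean of 1419 and 0 CPM in set 8.18.21. With 0 UMIs in each 3.0 mm pool, a fall within each set followed from the values above and is a description. The adjusted p of Zm00001d008950 (edgeR or DESeq2) ranged from 7.54e-07 to 0.506 over the 17 alternatives in which it was tested. Its call was lost in 4 of these, among them the fits without set 1.4.21 number 4 (0.113) and without set 8.18.21 number 10 (0.0908). It was not tested with cells thinned to 500 UMIs or with pools of any number of cells, and both of those refits had 0 calls.

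Taken as a group, the 10 fallen genes without a symbol made up 31410, 16260 and 6805 CPM of the 2.75 mm pools and 127, 915 and 183 CPM of the 3.0 mm pools. The genes had been chosen for this difference, so these sums are a description. In set 8.18.21 number 6 the level was less than that in the other 2.75 mm pools, and the highest 3.0 mm pool was below it.

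**Figure D1:**
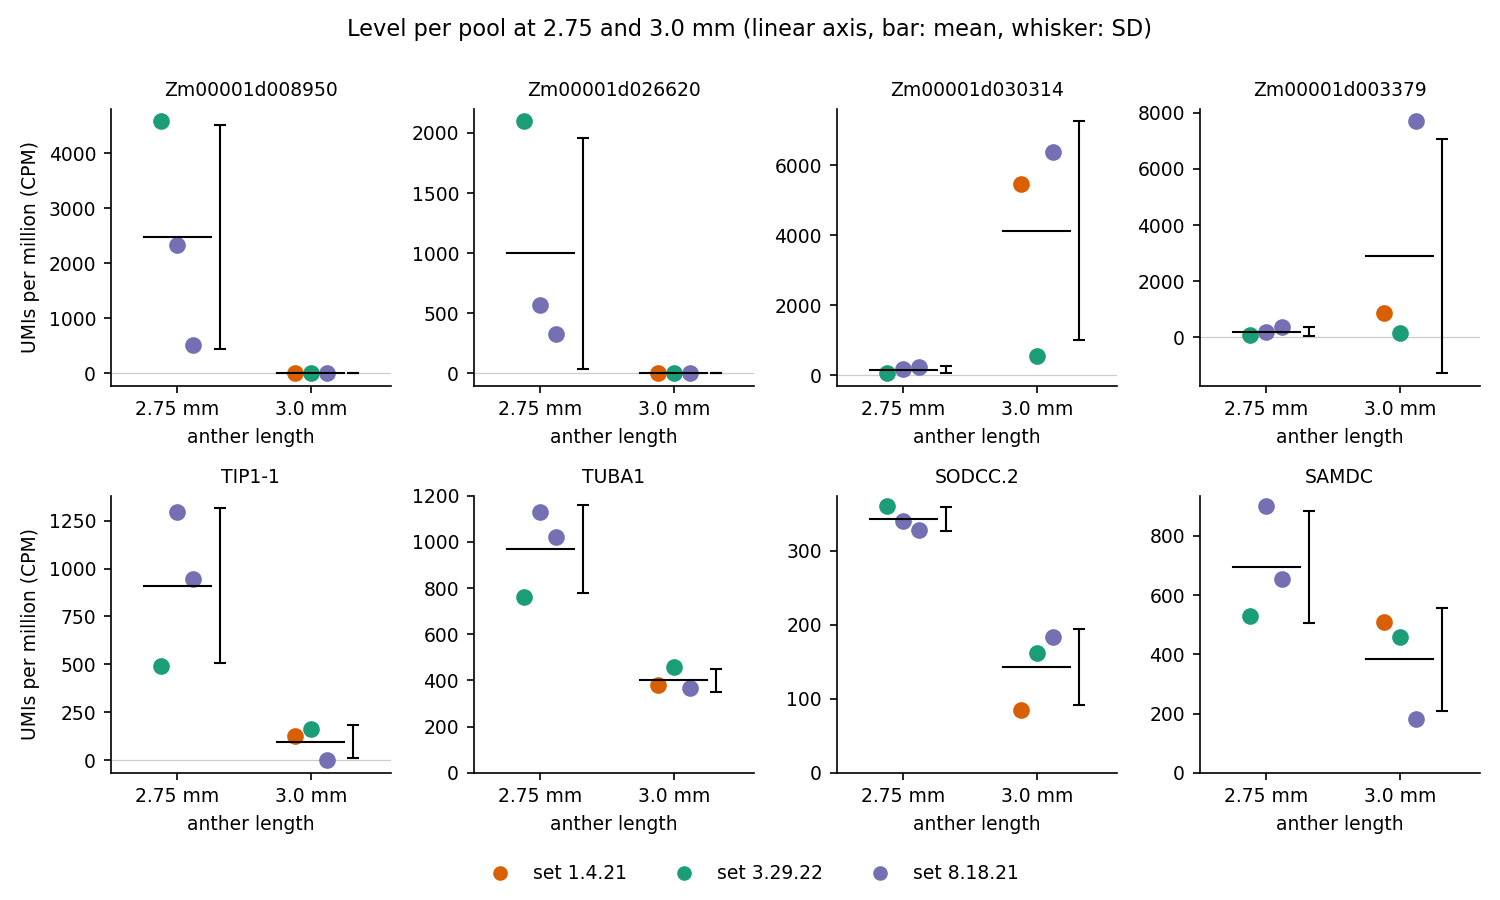
Level in CPM (linear axes) of 8 genes in each pool of 2.75 mm and 3.0 mm anthers, with the mean (bar) and SD (whisker, n = 3 pools) and colour for the set. Zm00001d008950 and Zm00001d026620 were at 0 in all 3.0 mm pools, while for Zm00001d003379 the 7707 CPM of set 8.18.21 number 10 set the mean.

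The transcripts of these 10 genes were concentrated in part of the cells. With each cell thinned to 500 UMIs, cells with at least 5 UMIs of the 10 genes, or 1% of their UMIs, numbered 20 of 44, 16 of 53 and 2 of 26 in the 2.75 mm pools. At 3.0 mm they numbered 0 of 19, 1 of 26 and 0 of 13. In all, the share was 30.9% at 2.75 mm (38 of 123 cells, exact 95% binomial interval 22.9 to 39.9) and 1.72% at 3.0 mm (1 of 58 cells, interval 0.0436 to 9.24), and without thinning 32.5% and 1.72%. Intervals cover counting error only, and they join cells of unlike pools, which are not replicates of a length. The genes had been chosen for their fall between these same pools. Fewer such cells at 3.0 mm thus followed largely from that choice, and the shares are a description. At 2.75 mm 18 cells had 3 or 4 such UMIs and 7 cells had 5 to 7, so the boundary was not sharp. Those counted as carrying the transcripts held 96.6%, 86.2% and 82.9% of the 10 genes' UMIs in their pools. The pool sums alone cannot tell fewer such cells from fewer transcripts per cell. The counts per cell are those given above, and with 1 such cell at 3.0 mm the level per carrying cell was not tested. The 1 such cell at 3.0 mm gave the 10 genes 4.83% of its UMIs, within the range of the cells at 2.75 mm.

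**Figure D2:**
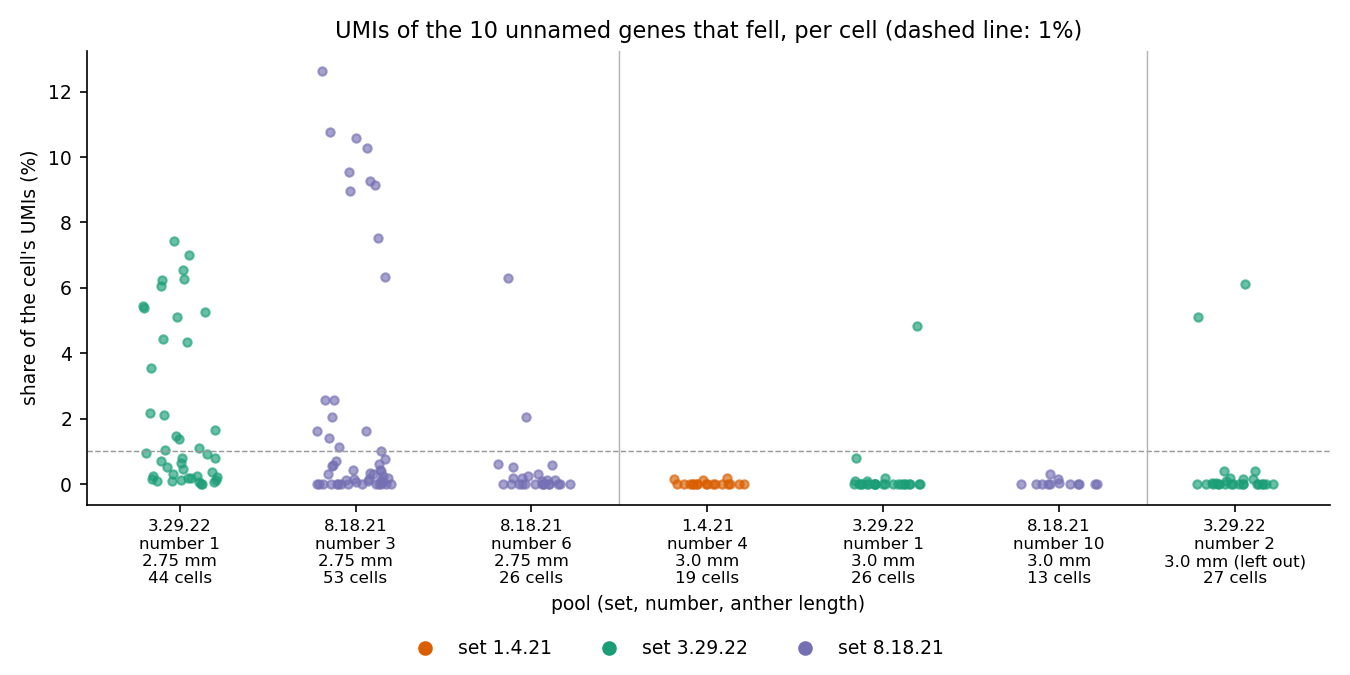
Share of each cell's UMIs (%) from the 10 fallen genes without a symbol, by pool, with colour for the set and a dashed line at 1%. The highest cells reached 7.42%, 12.6% and 6.31% in the 2.75 mm pools and 4.83% in set 3.29.22 number 1 at 3.0 mm, and the pool on the right is the one left out for its pollen transcripts.

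The 10 genes tended to occur in the same cells, to different degrees. Over the 123 cells of 2.75 mm anthers, thinned to 500 UMIs, the median Spearman correlation between pairs of them was 0.52 (45 pairs, range 0.07 to 0.81). These cells share their pools, and the value is a description. The correlation of the same genes with C2, the chalcone synthase gene, had a median of -0.16, and with RBCS, the small subunit of Rubisco, of -0.18. Pool by pool, the 2.75 mm cells that carried the transcripts had 192.5, 549 and 0 CPM of CAB1, a chlorophyll a/b binding protein, against 2265, 2962 and 2233 CPM in the other cells. For cemA, a protein of the plastid envelope encoded in the plastid, the values were 834, 2334 and 2106 CPM against 7055, 5390 and 13930 CPM. Both genes were thus lower in the carrying cells of each pool, but so were C2, RBCS, TIP1-1 and TUBA1. TUBA1, an alpha-tubulin gene, had 406.5, 732 and 702 CPM against 1294, 1257 and 1056 CPM. In set 8.18.21 number 6 the values rest on 2 carrying cells with 2849 UMIs. The DNA-binding HMG protein gene MNB1B had 1519, 2151 and 1404 CPM against 1845, 1705 and 1989 CPM, with no common direction. The carrying cells had medians of 2094, 1346 and 1424 UMIs against 1101, 1324 and 884.5 in the others. They were given no cell type name, since no marker list had enough rows.

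The level of the 10 genes also differed between sets of the same length. At 2.25 mm the pools had 9775 CPM in set 1.4.21, 57130 in set 3.29.22, and 26870 and 21970 in set 8.18.21. At 2.5 mm set 1.4.21 had 296 and 810 CPM, while set 8.18.21 had 7523 and 29560 CPM. The pools of set 1.4.21 at 2.5 mm thus lay within the range of the analysed 3.0 mm pools. At 2.75 mm the pools of set 1.4.21 that were too small for the comparison had 393 CPM (1 UMI in 2 cells, 95% Poisson interval 9.96 to 2191) and 8596 CPM (9 UMIs in 1 cell, interval 3931 to 16320), the first of them within the range of the analysed 3.0 mm pools. At 3.0 mm a pool of 4 cells, set 8.18.21 number 9, had 25370 CPM (96 UMIs, 95% Poisson interval 20550 to 30980), between the lowest and the highest 2.75 mm pool, though Zm00001d008950 itself had 0 UMIs there (a count of 0 allows 793 CPM). When that pool was added, which was decided on with its values in view, 2 genes of 387 were called. In the left-out pool, set 3.29.22 number 2, the 10 genes had 4866 CPM and 2 of 27 cells carried them, and with it 3 genes of 413 were called.

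**Figure D3:**
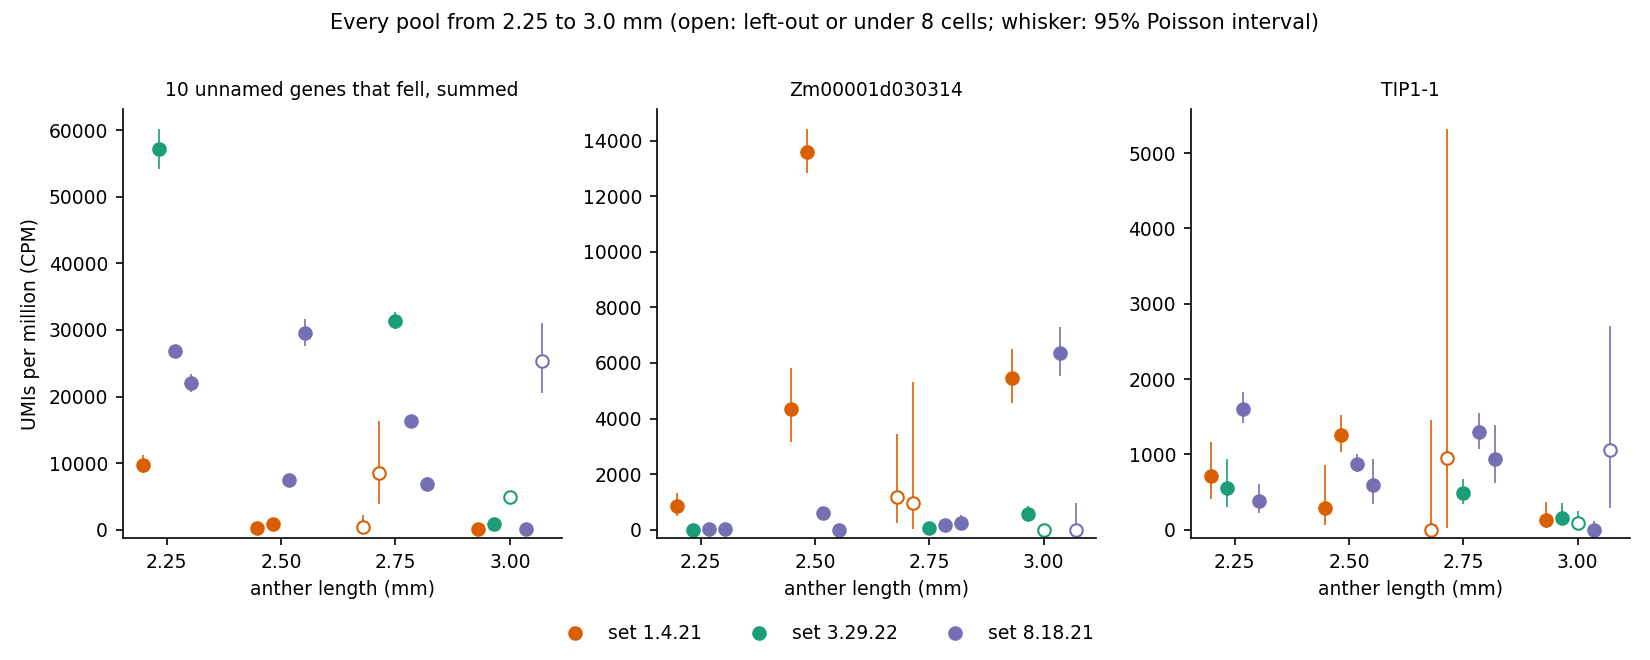
Level in CPM of the 10 fallen genes (summed), Zm00001d030314 and TIP1-1 in every pool from 2.25 to 3.0 mm, with colour for the set, 95% Poisson intervals as whiskers, and open circles for pools that were left out or had fewer than 8 cells. At 3.0 mm the 3 analysed pools of the summed genes lay between 127 and 915 CPM and the open circle of set 8.18.21 number 9 at 25370 CPM.

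Among the aquaporin genes, TIP1-1, a channel of the vacuolar membrane, fell. TIP1-1 had 489, 1296 and 946 CPM in the 2.75 mm pools and 127, 161.5 and 0 CPM in the 3.0 mm pools. All 2.75 mm pools were above all 3.0 mm pools. The log2 fold change was -3.01 (SE 0.86) and edgeR's adjusted p was 0.0279. At 500 UMIs per cell, TIP1-1 was detected in 8 of 44, 20 of 53 and 6 of 26 cells of the 2.75 mm pools. At 3.0 mm it was detected in 1 of 19, 2 of 26 and 0 of 13 cells. Joined over pools, the shares were 27.6% (34 of 123, interval 20.0 to 36.4) and 5.17% (3 of 58, interval 1.08 to 14.4), and without thinning 47.2% and 10.3%. Cells are not replicates of a length. TIP1-1 was named for its fall in these same pools, so the shares are a description. By set, the same pools of TIP1-1 went from 489 to 161.5 CPM in set 3.29.22 and from a mean of 1121 to 0 CPM in set 8.18.21. Its call was close to the threshold: over the 18 alternatives in which it was tested the adjusted p (edgeR or DESeq2) ranged from 0.00275 to 0.935. In 12 of them the call was lost, among them set as a block (0.0879) and the left-out pool added (0.0782, with 84.4 CPM of TIP1-1 in that pool).

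TIP1-1 did not follow the 10 fallen genes from cell to cell. In the cells of set 3.29.22 number 1 at 2.75 mm that carried the 10 fallen genes it had 107 CPM, against 1068 CPM in the other cells of the pool. In set 8.18.21 number 3 the gap was smaller, 961 against 1402 CPM, and in number 6 the 2 carrying cells had 0 UMIs of it, against 1056 CPM. Its Spearman correlation with each of the 10 genes over the 123 cells ran from -0.24 to 0.00.

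Of the 5 aquaporin genes tested, 1 fell and 0 rose, where 2.85% of all tested genes fell and 0.518% rose, and their median log2 fold change was -0.56, against 0.03 for all 386 genes. PIP1-3, an aquaporin of the plasma membrane, had 399, 494 and 509.5 CPM at 2.75 mm and 84.7, 430.6 and 0 CPM at 3.0 mm, and the groups overlapped (log2 fold change -1.31, SE 0.75, adjusted p = 0.599, edgeR). NIP1-1 had 193, 406 and 218 CPM at 2.75 mm and 42.3, 323 and 853 CPM at 3.0 mm. The remaining members, SIP1-2 and PIP2-2, had log2 fold changes of -0.56 and 0.36 and did not pass the test. Summed over the list, the aquaporins had 2383, 3920 and 3202 CPM at 2.75 mm and 1778, 2153 and 1889 CPM at 3.0 mm. Without TIP1-1 the sums were 1893, 2625 and 2256 CPM against 1651, 1991 and 1889 CPM, and the groups overlapped.

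Both genes that rose are listed by ID, and each was uneven between pools or cells. Zm00001d030314 had 64.4, 187 and 255 CPM in the 2.75 mm pools and 5461, 565 and 6367 CPM in the 3.0 mm pools. The groups did not overlap, with the 3.0 mm pool of set 3.29.22 far below the other two. The log2 fold change was 5.05 (SE 1.25, adjusted p = 0.00612, edgeR). In set 8.18.21 number 10, 71.3% of its UMIs were in 1 cell, and at 500 UMIs it was detected in 9 of 19, 2 of 26 and 5 of 13 cells of the 3.0 mm pools and in 3 of 123 cells at 2.75 mm. It had 13600 and 4335 CPM in the 2.5 mm pools of set 1.4.21, 609 and 0 CPM in those of set 8.18.21, 1180 and 955 CPM (3 and 1 UMIs) in the small 2.75 mm pools of set 1.4.21, above every analysed 2.75 mm pool, and 0 UMIs in the left-out 3.0 mm pool. With the latter pool added the adjusted p was 0.333 (edgeR). The range was 2.12e-05 to 0.959 (edgeR or DESeq2) over the 17 alternatives in which the gene was tested, of which 10 lost the call.

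Zm00001d003379, named here because it was the other gene that rose and not by the rule for named genes, had 64.4, 176 and 364 CPM at 2.75 mm and 847, 135 and 7707 CPM at 3.0 mm. The groups overlapped. The adjusted p was 0.0301 (edgeR, log2 fold change 4.27, SE 1.24), and 77.9% of its UMIs in set 8.18.21 number 10 were in 1 cell. Without that pool the log2 fold change was 1.70 and the adjusted p 0.647 (edgeR). The range was 0.00455 to 0.985 (edgeR or DESeq2) over the 17 alternatives in which the gene was tested. The call was lost in 10 of these, set as a block included (0.168), and the direction turned in 1.

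Transcripts of photosynthesis genes were mostly at higher levels in the 3.0 mm pools, but none passed the test. RBCS had 399, 879 and 1310 CPM at 2.75 mm and 3472, 1669 and 1097 CPM at 3.0 mm. The highest 2.75 mm pool was above the lowest 3.0 mm pool, and the adjusted p was 0.673 (edgeR, log2 fold change 1.62, SE 1.02). Within set 3.29.22 RBCS went from 399 to 1669 CPM, and within set 8.18.21 it had 1094 and 1097 CPM. CAB1 had 1017, 2383 and 2002 CPM at 2.75 mm and 3218, 3929 and 1493 CPM at 3.0 mm.

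All 4 nuclear photosynthesis genes tested had positive log2 fold changes, between 0.71 and 1.62 with a median of 0.94, and 0 of them were called. Over all tested genes 196 of 386 were positive, and with library sizes alone as the scaling the list's median was 0.43. Within set 3.29.22 all 4 were higher at 3.0 mm, while within set 8.18.21 CAB1, PSAH and PSBQ1 were lower, by log2 ratios of -0.55, -0.68 and -0.67, and RBCS was level. PSAH, of photosystem I, had a log2 fold change of 0.97 (SE 0.72) and PSBQ1, of the oxygen-evolving complex of photosystem II, 0.71 (SE 0.71). The list summed to 1867, 4404 and 4658 CPM at 2.75 mm and to 8721, 6755 and 3198 CPM at 3.0 mm. At 500 UMIs RBCS was detected in 11.4%, 18.9% and 50.0% of the cells of the 2.75 mm pools. At 3.0 mm the shares were 63.2%, 42.3% and 30.8%, so the pools of the lengths overlapped. Joined over pools, the shares were 22.8% at 2.75 mm and 46.6% at 3.0 mm (28 of 123 and 27 of 58, intervals 15.7 to 31.2 and 33.3 to 60.1). Without thinning they were 31.7% and 56.9%. Cells are not replicates and these shares were not tested.

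Of the plastid-encoded photosystem genes, 4 of 4 had positive log2 fold changes (median 1.10, or 0.69 with library sizes alone) and 0 were called. Within set 8.18.21 psbC and psbH were lower at 3.0 mm, by log2 ratios of -0.44 and -0.26, and within set 3.29.22 all 4 were higher. psbA, for the D1 protein of photosystem II, had 155, 132 and 400.3 CPM at 2.75 mm and 635, 269 and 396 CPM at 3.0 mm (log2 fold change 1.24, SE 0.72, adjusted p = 0.603, edgeR). psbC, for the antenna protein CP43, was the most abundant, at 2692, 3822 and 8334 CPM against 10500, 6755 and 4478 CPM. For both genes the pools of the lengths overlapped. psbB and psbH had log2 fold changes of 1.34 (SE 0.92) and 0.96 (SE 0.90).

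The other plastid-encoded genes had no common direction, with 9 of 15 positive, a median of 0.05 and 0 called. With library sizes alone as the scaling, which moved the median of all tested genes from 0.03 to -0.35, their median was -0.32. Their extremes were atpI, for a subunit of the plastid ATP synthase, at 1.04 (SE 1.01), and ycf70, at -0.51 (SE 0.98). cemA had 3310, 4656 and 12700 CPM at 2.75 mm and 6478, 11810 and 3777 CPM at 3.0 mm. One 2.75 mm pool, set 8.18.21 number 6, held the most plastid transcripts of all 6 pools: over the 25 plastid-encoded symbols it had 58230 CPM, against 16640 and 20040 CPM in the other 2.75 mm pools and 38610, 45000 and 20560 CPM at 3.0 mm. It was also the pool with the fewest UMIs per cell at 2.75 mm, and the part of either in the comparison was not tested. CEL-Seq2 captures transcripts by their poly(A) tails, so plastid values are of captured UMIs.

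**Figure D4:**
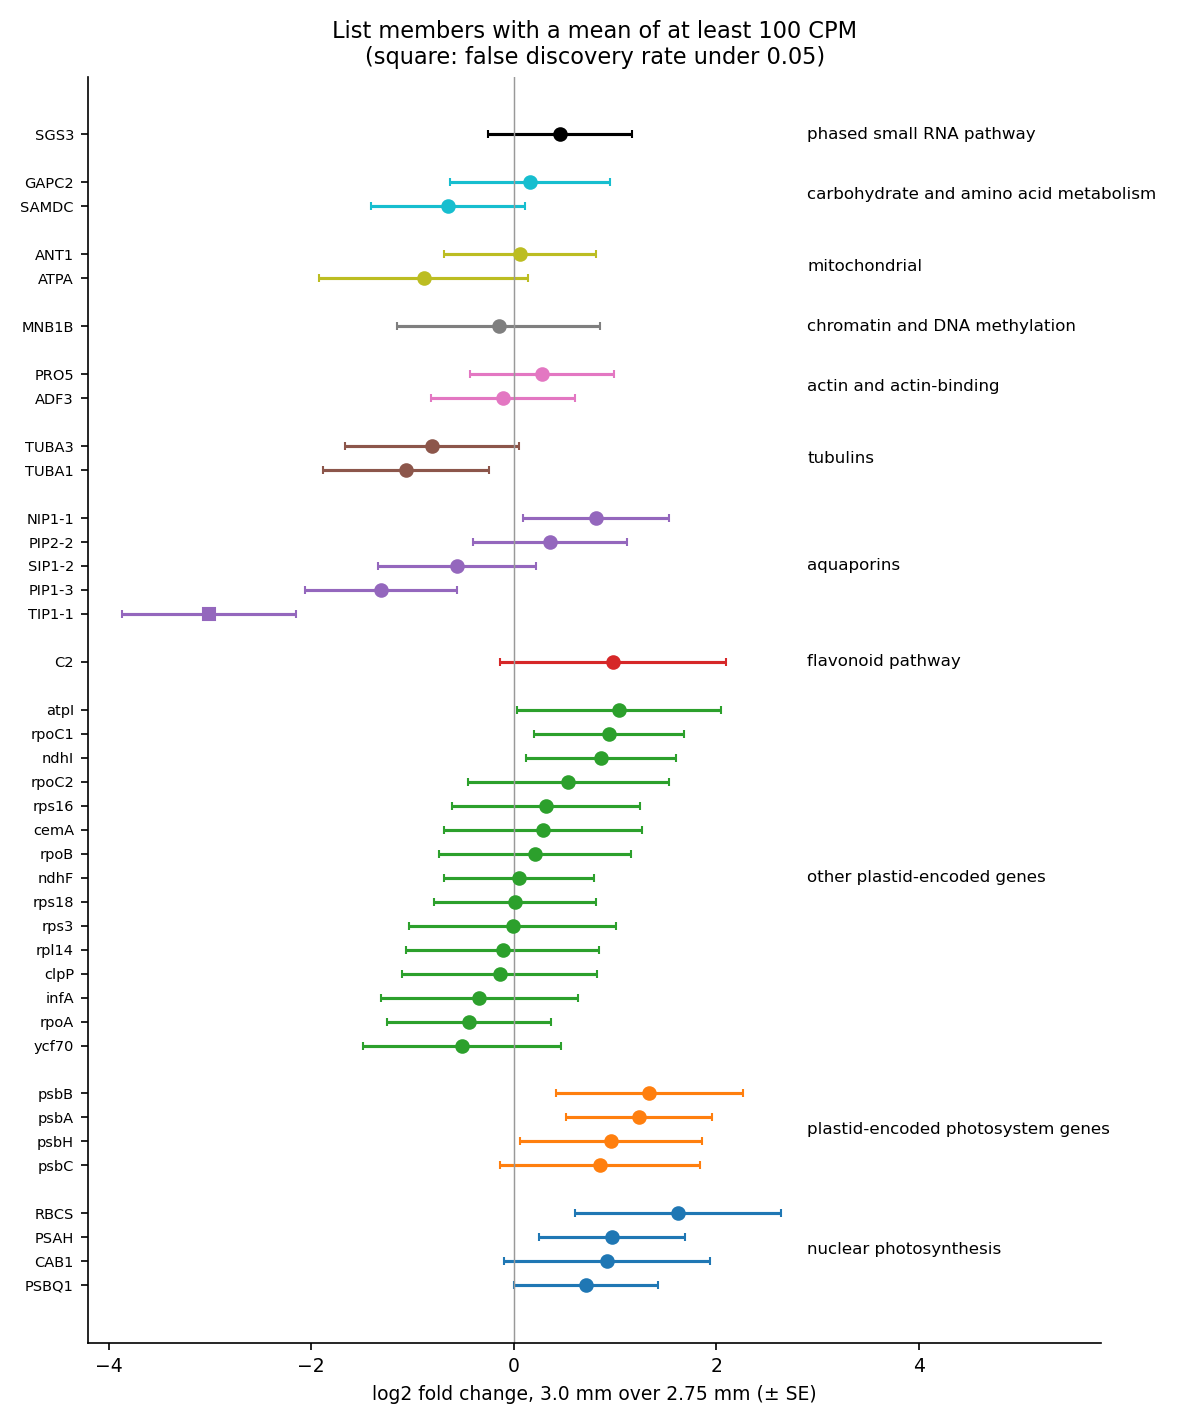
Log2 fold change of 3.0 mm over 2.75 mm with its SE (horizontal bars) for tested members of the gene lists with a mean of at least 100 CPM, grouped by list, with squares for genes under a false discovery rate of 0.05. TIP1-1, at -3.01, is the only square, and the photosystem genes lie between 0.71 and 1.34.

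C2, the first gene of the flavonoid pathway, was uneven among pools of both lengths. It had 373.5, 5963 and 2766 CPM at 2.75 mm and 0, 6916 and 7615 CPM at 3.0 mm (log2 fold change 0.98, SE 1.12, adjusted p = 0.862, edgeR). The high values had different sources: in set 8.18.21 number 3 at 2.75 mm C2 was detected in 30 of 53 cells, with 23.2% of its UMIs in the highest cell. In the 3.0 mm pools of set 8.18.21 number 10 and set 3.29.22 number 1, 1 cell held 89.6% and 75.9% of the UMIs of C2. In set 1.4.21 number 4 none of 19 cells had a UMI of C2, which allows 127 CPM. C2 was the only gene of the flavonoid list with a row.

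Alpha-tubulin genes were at lower levels at 3.0 mm without passing the test. TUBA1 had 760, 1131 and 1019 CPM at 2.75 mm and 381, 457.5 and 365.5 CPM at 3.0 mm, so that the groups did not overlap. Its log2 fold change was -1.06 (SE 0.82) and its adjusted p 0.713 (edgeR). In the left-out 3.0 mm pool TUBA1 had 1491 CPM, above every 2.75 mm pool, and with that pool its log2 fold change was -0.15. Among all tested genes, 13.7% had pools that did not overlap, 11.9% lower at 3.0 mm and 1.81% higher. TUBA3 had 1275, 933 and 691 CPM against 212, 699.7 and 670.2 CPM, with overlap. Of the 2 tubulin genes tested, 0 were called, and their median was -0.94.

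Other genes with symbols and at least 200 CPM whose pools did not overlap were SODCC.2, SODCC.1 and SAMDC, each lower at 3.0 mm and none called. SODCC.2, a cytosolic copper/zinc superoxide dismutase, had 361, 340 and 327.5 CPM at 2.75 mm and 84.7, 161.5 and 183 CPM at 3.0 mm (log2 fold change -1.10, SE 0.75, adjusted p = 0.683, edgeR). SODCC.1, of the same family, had 232, 516 and 400.3 CPM against 42.3, 188 and 213 CPM and was below the filter on counts. Genes of 1 family can share reads, and the counting of such reads was not stated in the labels. SAMDC, whose enzyme decarboxylates S-adenosylmethionine for the making of polyamines, had 528, 900.5 and 655 CPM against 508, 457.5 and 183 CPM (log2 fold change -0.65, SE 0.76). With the left-out pool, where SAMDC had 928 CPM, its log2 fold change was -0.07.

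The remaining lists gave 0 calls. ATPA, an ATP synthase alpha subunit, had 2099, 2877 and 8334 CPM at 2.75 mm and 1058, 2826 and 2346 CPM at 3.0 mm (log2 fold change -0.89, SE 1.03). Its highest value was in the pool with the most plastid transcripts. MNB1B had 1649, 1812 and 1929 CPM at 2.75 mm, within a narrow range, and 296, 1965 and 2193 CPM at 3.0 mm, where set 1.4.21 stood apart. The profilin gene PRO5 and the actin depolymerizing factor gene ADF3 had log2 fold changes of 0.28 (SE 0.71) and -0.11 (SE 0.71), GAPC2 of cytosolic glycolysis 0.16 (SE 0.79), the adenine nucleotide carrier gene ANT1 0.06 (SE 0.75) and SGS3, of the phased small RNA pathway, 0.46 (SE 0.71). None of the listed symbols of DNA replication (6), cytosolic ribosomal proteins (7), chaperones (3) and transcription factors (6) passed the filter on counts. The 3 chaperone genes BIPE2, CPN60I and CPN60II together had 309, 220 and 364 CPM at 2.75 mm (54 UMIs) and 127, 26.9 and 60.9 CPM at 3.0 mm (6 UMIs).

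Precursors of phased small RNAs were nearly undetected at both lengths. Of 151 loci of 21-nucleotide phased RNAs, 2 had UMIs, with 0 in all at 2.75 mm and 3 at 3.0 mm. Of 75 loci of the 24-nucleotide class, 2 had UMIs, 1 each at 2.75 mm and 0 at 3.0 mm. The microRNA precursors zma-MIR167g and zma-MIR169e had 1 UMI each at 2.75 mm. Differences of this size are not detectable at this depth.

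The difference of 3.0 mm from 2.75 mm was compared with that of 2.5 mm from 2.25 mm, between pools that are all distinct, to ask whether any gene changed unlike in the earlier step. Of 672 genes tested, 0 (0%) differed between the steps at a false discovery rate of 0.05 by edgeR's quasi-likelihood test and 0 by DESeq2, with 15 and 23 at an unadjusted p under 0.05. For TIP1-1 the difference between the steps was -3.12 on the log2 scale (SE 1.11, adjusted p = 0.997, edgeR), and for Zm00001d008950 it was -8.80 (SE 3.27, adjusted p = 0.997). The changes from 2.75 to 3.0 mm were therefore not shown to be particular to that step.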

How the data were processed

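The authors deposited 1 table of raw UMI counts, 22173 rows by 2182 cells, each cell a separate sample. The submitters' processing notes name HISAT2 and B73 RefGen_v4. The version of HISAT2, how UMIs were counted, strand use and filters were not given in the sources used here. Set, number, length and well were read from the cell titles; what a set number stands for is not given. Doublets were not called or removed, as wells received single cells.

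Counts were summed per pool, with 23620 to 91061 UMIs each. The model was edgeR's (version 4.0.16, under R 4.3.3) quasi-likelihood F-test, after filterByExpr by length, with TMM factors (Benjamini-Hochberg false discovery rate of 0.05). Over the table, 16709 rows had a UMI in the 6 pools and 386 passed the filter. The difference of differences used the pools from 2.25 to 3.0 mm. Depth was compared by exact permutation over pools. CPM values carry no TMM factor. The biological coefficient of variation was 0.645. On simulated counts for this comparison the test called 2.44% of genes changed 4-fold (82 such genes among 524 tested). It called 96.3% of genes changed 16-fold (109 among 587), and 8 unchanged genes with them. The simulation gave every gene a common dispersion and changed only genes of at least 100 CPM. Recovery in the real pools, where single cells held most UMIs of some genes, can differ. Binomial and Poisson intervals and floors of 3 counts cover counting error only.

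Named genes were those with a symbol that passed the test, then symbols of at least 200 CPM whose pools did not overlap, tested members of 19 gene lists with at least 100 CPM, and up to 2 genes each way known by ID. No ID matched the reference table, which belongs to another build, so no name, coordinate or sequence is given for them. Members and lists were chosen with earlier results of these data known. Alternatives were RLE factors, library size alone, no filter, DESeq2 1.42.0, set as a block, other limits on cells and pools, thinning, all 11 lengths, single sets and each pool left out.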

Additional observations from a re-analysis of the deposited data

Results flagged for a closer look

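Transcripts known from pollen were the reason for leaving set 3.29.22 number 2 at 3.0 mm out of the main comparison, so their levels there describe that choice. The 6 analysed pools had 0 UMIs of them, which allows 10.3 CPM. EXPB1, a beta-expansin of grass pollen, had 12120 CPM there and the profilin gene PRO3 5091 CPM, each with UMIs in 13 of 27 cells. MGS1, named as male gametophyte-specific, had 1800 CPM, the actin depolymerizing factor gene ADF2 1688 CPM, PG6 1435 CPM, EXPB11 816 CPM and the cell number regulator gene CNR3 563 CPM. With EXPB10, these 8 genes made up 2.38% of the pool's UMIs, 15 of its cells had at least 1 of them and 12 had 10 or more.

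The 10 genes without a symbol that fell from 2.75 to 3.0 mm stood at 25370 CPM in the 4 cells of set 8.18.21 number 9 at 3.0 mm, a pool too small for the comparison, against 127 to 915 CPM in the analysed 3.0 mm pools. Groups of 3 pools were not tested for single outlying pools.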

How the results depend on the processing

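The count of 13 called genes was 13 with RLE factors, 19 with library size alone and 15 with DESeq2. Each of these fits held all 13. With all 11 lengths in the fit the count was also 13, but only 4 of these were among the main 13. With set as a replicate block it was 10 (all 10 among the 13). It was 55 without a filter on counts, 58 in set 8.18.21 alone (36 higher and 22 lower), 3 with set 3.29.22 number 2 added, 0 in cells of at least 1000 UMIs, 0 with cells thinned to 500 UMIs (where 109 genes could be tested) and 0 with pools of any number of cells. At an unadjusted p under 0.05 these last 3 fits had 93, 16 and 14 genes. Leaving out each pool in turn gave 0 to 29. As alternatives added after the data were seen, it was 21 without the cell of most UMIs in each pool and 2 with pools of 4 or more cells. Whether a shared set number pairs pools is not known, since its meaning was not stated and of the analysed pools only those of set 3.29.22 number 1 share one across the lengths; the cause of these shifts was not tested. Set 3.29.22 alone has 1 pool a length and gave no test. Set 8.18.21 alone has 1 pool at 3.0 mm and so no spread between pools at that length. Its count of calls is listed for completeness only, and no conclusion is drawn from it. The 0 genes that differed between the steps became 1 without a filter on counts, and 0 in every other refit, the replicate block and each left-out pool included.

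Zm00001d003379 was at -0.46 on the log2 scale in cells of at least 1000 UMIs, the opposite direction. With pools of 4 or more cells it was at 3.87, so the called gene that changed sign there was another. Genes per cell at 500 UMIs differed by 4.54 in favour of 3.0 mm within set 8.18.21, and median UMIs by 231 in favour of 3.0 mm in cells of at least 1000 UMIs. The uncalled TUBA1, SODCC.2 and SAMDC kept their sign and gained no call in the 19, 16 and 18 alternatives in which they were tested. With set 3.29.22 number 2, however, TUBA1 and SAMDC were near 0 (-0.15 and -0.07). With 3 pools a length and this spread between pools, few simulated 4-fold changes were called.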
